A study of Mus musculus with 2 samples.

Results

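The proteasome subunit genes described here are those with a mouse symbol beginning Psma, Psmb, Psmc, Psmd, Psme or Psmg and ending with a number, which include the assembly chaperones and activators, each represented by its strongest promoter peak of open chromatin. A promoter peak lies within 1 kb of a transcription start in the authors' annotation, and the strongest is the peak with the most counts over both libraries. Of 47 such protein-coding genes in the reference annotation, 41 had a promoter peak, among 12142 named protein-coding genes that had any.

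The proteasome is the protease complex that degrades proteins tagged with ubiquitin. Its core particle is a barrel of alpha and beta rings with the catalytic sites inside, and a regulatory particle of ATPases and non-ATPase subunits recognises, unfolds and feeds in the substrates. In the heart it removes damaged and misfolded sarcomeric and signalling proteins, and inducible beta subunits replace the constitutive catalytic subunits under interferon and in immune cells.

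The assay was ATAC-seq on nuclei of mouse heart samples: the transposase Tn5 cuts accessible DNA and tags the fragments for sequencing. There was 1 library from Ythdc1flox/flox control mice and 1 from Ythdc1 CKO mice, a cardiac-specific knockout of Ythdc1, the gene of a nuclear reader of methylated adenosine in RNA. Mice of both genotypes were 15 days old and on normal chow. Neither the promoter that drives the deletion nor the number of animals behind each library is stated in the labels. Over 58076 peaks the control library had 6755590 counts and the knockout library 6466537. Every difference below is between these 2 libraries, without a replicate check and without a p-value. Each ratio is knockout to control, after division by the counts in peaks, with an exact (Clopper-Pearson) 95% interval that covers counting error only.

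As a check of the tissue label, all 10 cardiomyocyte markers examined (Myh6, Tnnt2 and others) had a promoter peak, and their summed signal was 487 CPM (counts scaled to a fixed total of counts in peaks) in the control and 413 for the knockout, with 3 of the 10 above a log2 ratio of 0 and a median of -0.48. None of 8 immune cell markers had a promoter peak, and 3 had a peak elsewhere. The 4 endothelial markers summed to 82.0 and 91.1 on the same scale, with 3 above 0 and a median log2 ratio of 0.20. The 4 fibroblast markers summed to 71.6 and 86.6, with 2 above 0 and a median log2 ratio of 0.05. The part of these cell types in the proteasome values was not tested, and in bulk heart tissue fewer cells of a type and less accessibility per cell cannot be told apart. Apart from a few restricted subunits, such as the inducible ones, proteasome genes are used by every cell type and mark none of them.

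All 41 proteasome promoters had a called peak in both libraries, and no ratio came near the 2-fold size rule. Ratios ran from 0.767 at Psmd8 to 1.33 at Psmb10. A total of 23 members lay above a log2 ratio of 0 and 18 below, with a median of 0.03 and a standard deviation over members of 0.21. Counting error alone had a median standard error of 0.13 per member on the log2 scale. The summed list gave 10827 control and 10559 knockout counts, a ratio of 1.02 (0.992 to 1.05). The sign of a ratio depends on the scaling: on the authors' RPM scale, which lowers each log2 ratio by about 0.17 (a shift of -0.17), 11 members lay above 0, the median was -0.14 and the summed ratio was 0.904 (0.880 to 0.929).

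Set beside the other promoters, 0 of 41 members differed at least 2-fold, and 2.36% of the 12142 named promoters did. Among the 9604 named promoters with as many counts as the members have, 0.479% did, so that a count of 0 is near this background. The interval lay above 1 at 5 members (12.2%) and below 1 at 4 (9.76%). The background was 13.1% above and 16.3% below over all named promoters, and 12.7% and 16.3% in the same range of counts. On the RPM scale Psmb10 alone kept an interval above 1 and 14 members had one below 1, against 4.64% above and 37.6% below over all named promoters. With TMM scaling 7 members (17.1%) lay above and 2 (4.88%) below, and the intervals of Psma7 and Psmd4 then held 1. The background with TMM was 17.6% above and 12.03% below over all named promoters. Ratios above 0 on the log2 scale were found at 56.1% of members, against 46.0% of all named promoters and 45.8% in the same range. All 41 member peaks were called in both libraries, against 89.7% and 98.1%.

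**Figure D1:**
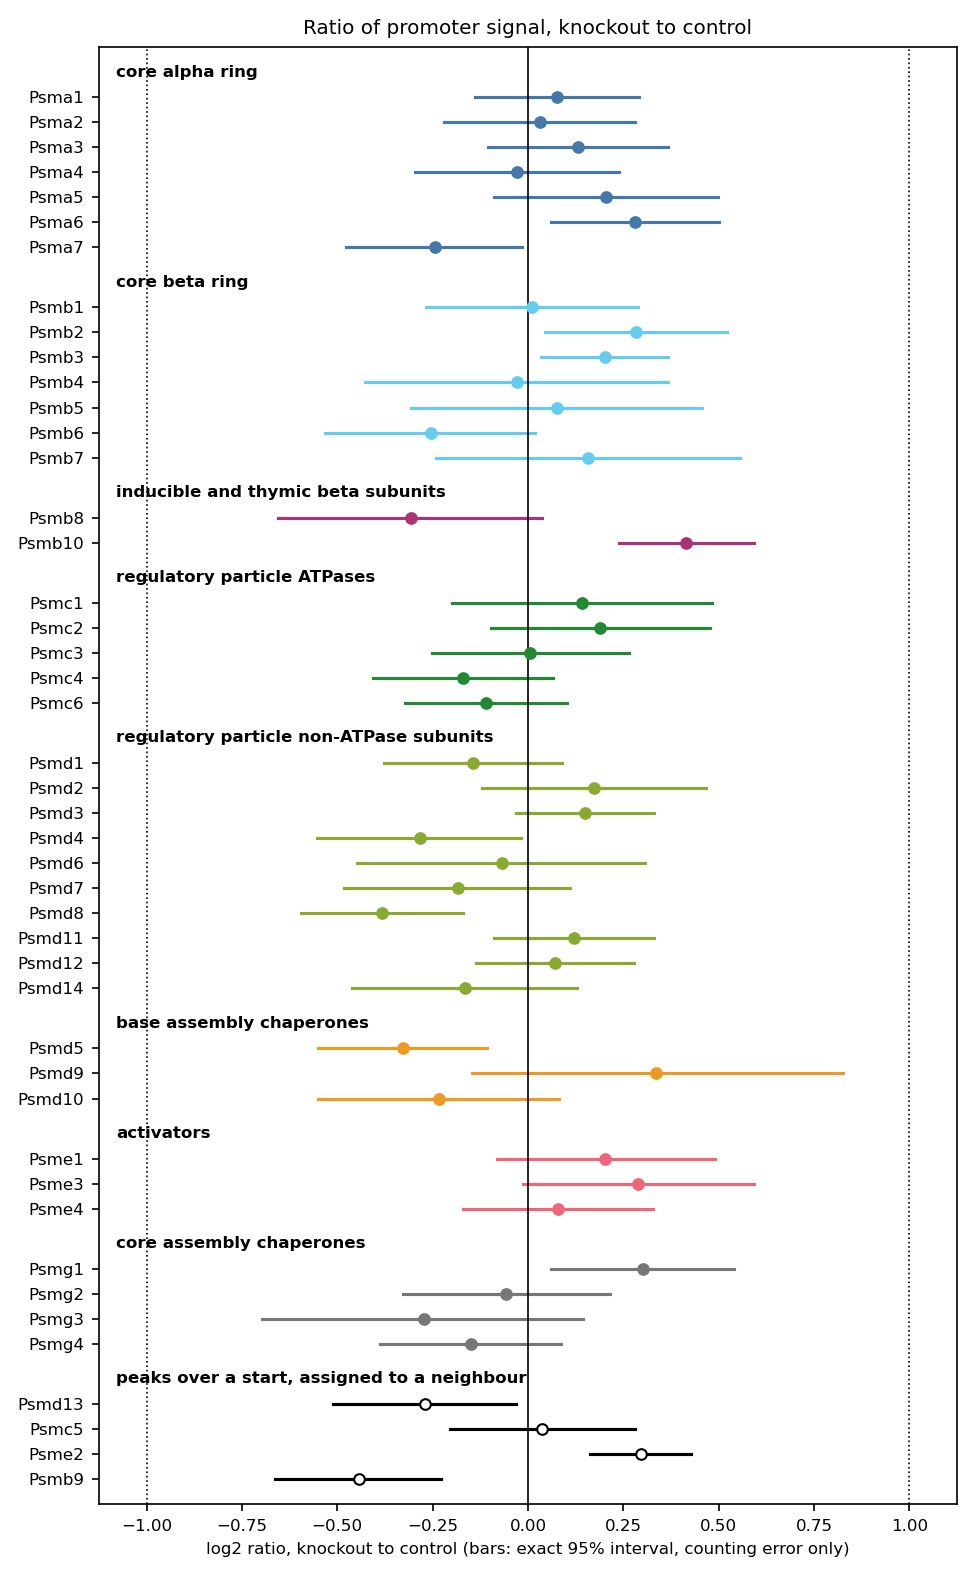
Log2 ratio of promoter signal, knockout to control, for each proteasome gene by role (filled points) and for 4 peaks over the start of a further proteasome gene that the table assigns to a neighbour (open points). Bars are exact 95% intervals for counting error; dotted lines mark the 2-fold rule, and every point lies between them.

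Each of the 41 peaks covered its assigned transcription start, as did 88.9% of all named promoter peaks and 93.7% in the same range of counts. They were 383 to 1640 bp wide with a median of 773 bp (718 bp over all), and reached a median of 330 bp upstream and 444 bp downstream of the start. Counts ran from 67 at Psmd9 to 567 at Psmb3 in the control and from 81 to 624 in the knockout at the same genes. The median of the authors' fold enrichment, a ratio of peak signal to background, was 17.5 in the control and 14.9 in the knockout, against 15.5 and 13.6 for all named promoters. The start of another gene on the opposite strand lay in 3 member peaks: Mrpl32 at Psma2, Ss18l1 at Psma7 and Atg4a at Psmd10. That is 7.32% of members and 12.3% of named promoters, counted over the starts that the RefSeq promoter table lists. The share of members leaves out 4 peaks over a further proteasome gene start. These are assigned to a neighbour on the opposite strand: Sirt3, Ftsj3, Rnf31 or Tap1. A lower share of shared starts at proteasome genes can therefore not be read from these values.

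**Figure D2:**
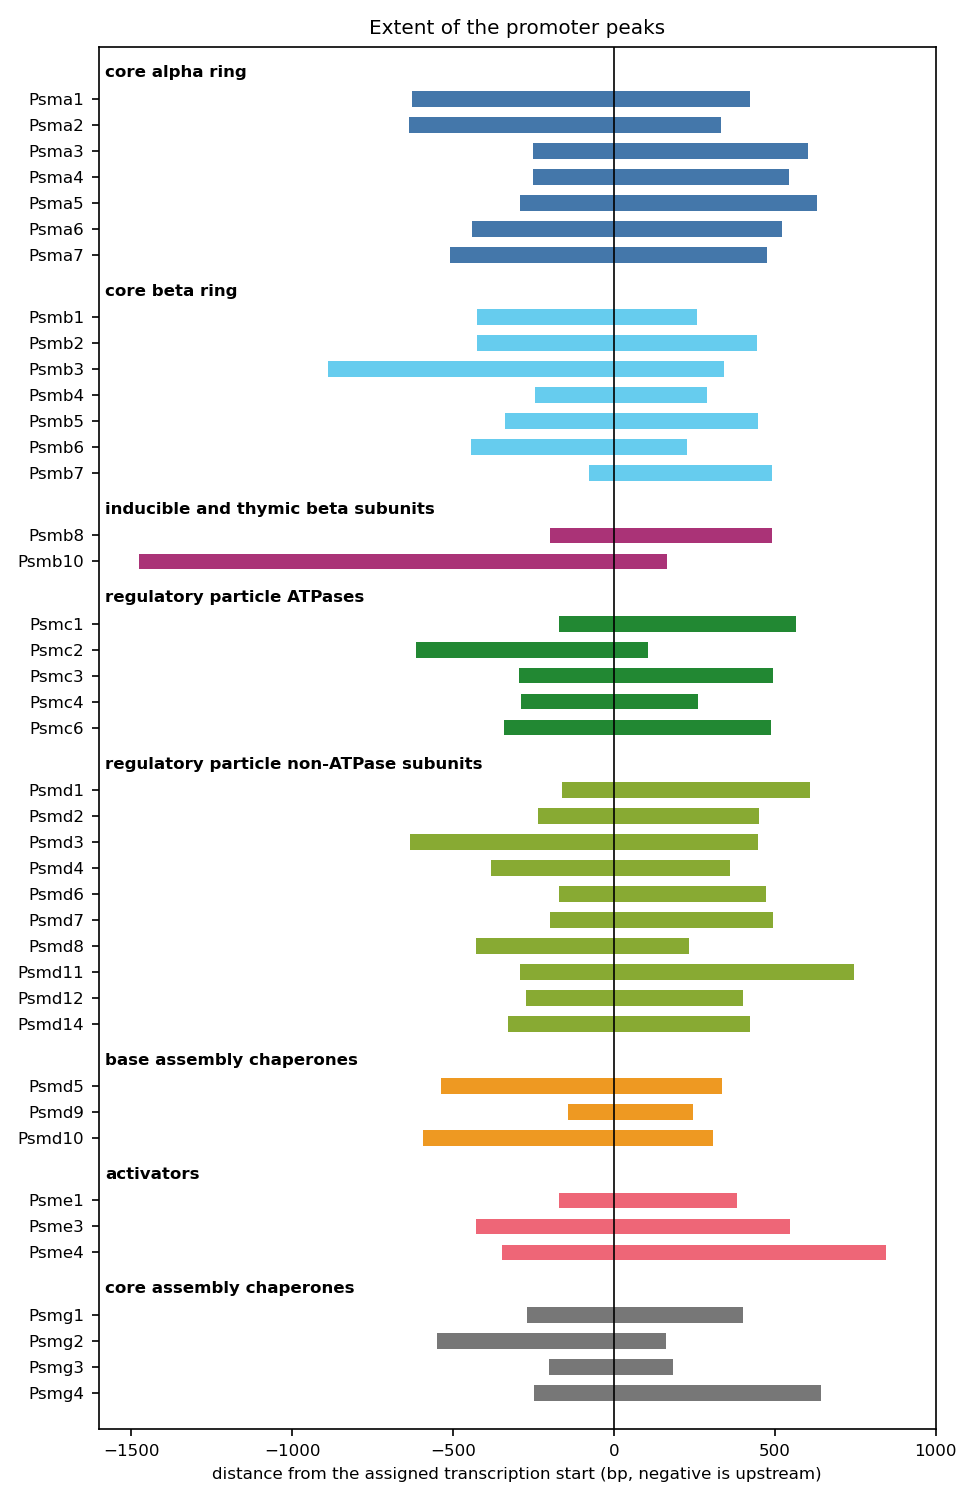
Extent of each promoter peak relative to the assigned transcription start (x axis, bp, upstream negative), by role. Every peak straddles the start, and the peak of Psmb10 reaches 1475 bp upstream.

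RefSeq promoter sequences of GRCm38.p6, from 250 bp before to 50 bp after a start, were available for 34 of the 41 members with the start inside the member's peak, and for 8134 named genes in all. They were searched on both strands, and matches of different motifs could overlap. Stretches of 150 bases before the start are shown for 8 members. Psmb5 and Psmb6, which encode constitutive catalytic subunits, carry the antioxidant response core. Psmc1, Psmg1 and Psma6 carry the ETS motif, at positions -28, -69 and -132 from the start. They are examples out of 13 member windows with this motif. Psmg1 and Psma6 are among the 5 members with an interval above 1, and the interval of Psmc1 holds 1. Psmd8, Psmd5 and Psma7, chosen after their ratios were seen, are 3 of the 4 members with an interval below 1. Each carries a GC box, which 58.8% of member windows and 69.9% of all windows hold. Examples chosen in this way cannot show whether the motif goes with the ratio, and this was not tested. The fourth, Psmd4, has no GC box in its window and carries CCAAT and, like Psmg1 and Psma6, the ETS motif. Capitals mark each match to a searched motif that lies wholly in the stretch.
Psmb5, chr14:54617996-54618145, minus strand: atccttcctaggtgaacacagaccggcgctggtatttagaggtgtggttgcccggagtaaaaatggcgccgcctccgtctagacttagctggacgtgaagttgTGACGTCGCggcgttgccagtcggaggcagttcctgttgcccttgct
Psmb6, chr11:70525207-70525356, plus strand: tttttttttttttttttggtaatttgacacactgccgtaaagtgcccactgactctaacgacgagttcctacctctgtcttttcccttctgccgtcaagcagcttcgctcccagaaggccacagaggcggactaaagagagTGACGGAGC
Psmc1, chr12:100110052-100110201, plus strand: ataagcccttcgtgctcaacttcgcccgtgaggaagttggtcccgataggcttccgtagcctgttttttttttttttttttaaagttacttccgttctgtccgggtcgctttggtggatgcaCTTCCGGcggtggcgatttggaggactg
Psmg1, chr16:95990961-95991110, minus strand: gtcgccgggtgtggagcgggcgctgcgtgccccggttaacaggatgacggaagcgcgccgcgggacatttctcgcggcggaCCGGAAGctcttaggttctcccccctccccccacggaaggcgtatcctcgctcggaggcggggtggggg
Psma6, chr12:55398675-55398824, plus strand: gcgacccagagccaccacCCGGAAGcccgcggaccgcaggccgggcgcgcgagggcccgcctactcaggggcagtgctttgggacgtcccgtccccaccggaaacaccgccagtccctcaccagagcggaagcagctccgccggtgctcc
Psmd8, chr7:29180674-29180823, minus strand: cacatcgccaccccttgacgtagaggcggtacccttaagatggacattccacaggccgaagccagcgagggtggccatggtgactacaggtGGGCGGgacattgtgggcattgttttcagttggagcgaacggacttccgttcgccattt
Psmd5, chr2:34870963-34871112, minus strand: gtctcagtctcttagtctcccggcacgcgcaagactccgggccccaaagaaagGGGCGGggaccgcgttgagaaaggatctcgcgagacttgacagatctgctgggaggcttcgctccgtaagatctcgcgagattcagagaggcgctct
Psma7, chr2:180042465-180042614, minus strand: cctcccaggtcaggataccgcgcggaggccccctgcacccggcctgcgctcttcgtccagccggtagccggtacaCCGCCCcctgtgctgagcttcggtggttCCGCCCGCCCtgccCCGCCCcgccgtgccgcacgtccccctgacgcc

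The antioxidant response core TGACNNNGC, the motif bound by Nfe2l1, which induces proteasome genes when proteasome activity is short, and by Nfe2l2, was present in 6 of 34 member windows (17.6%) and in 15.0% of all 8134. It lay at Psmb5 (TGACGTCGC, starting at position -47 from the start), Psmb6 (TGACGGAGC, -9), Psmd9 (TGACCCCGC, -31, overlapping a GC box), Psme4, Psmc6 and Psmd12. The 6 members with it had a median log2 ratio of 0.07 and ranged from -0.26 to 0.34, and the 28 without it had a median of 0.00067. The ETS motif CCGGAAG was found in 13 of 34 member windows (38.2%) and in 18.9% of all. The GC box GGGCGG was in 20 members (58.8%, all 69.9%), CCAAT in 11 (32.4%, all 38.9%), and TATAAA in 4 (11.8%, all 5.89%). The YY1 motif AAGATGGCG was in 1 member, Psmb6 (2.94%, all 3.41%), and the palindrome of nuclear respiratory factor in 2, Psma2 and Psmg1 (5.88%, all 2.27%). Member windows had a median GC content of 59.0% (all 62.0%) and a median CpG ratio, observed to expected, of 0.749 (all 0.789). These are matches of letters in a window, not measured binding. No sequence was used for Psmb1, Psmb2, Psmb7, Psmc3, Psmd3, Psmd7 and Psmg2.

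**Figure D3:**
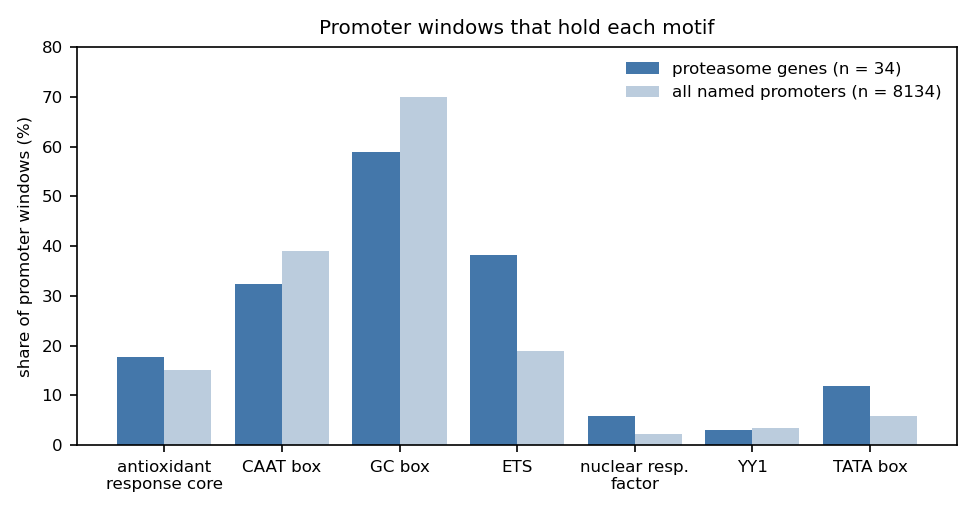
Share of promoter windows (y axis, %) that hold each motif, for 34 proteasome genes (dark bars) and 8134 named promoters (light bars). The ETS motif is in 38.2% of the members and 18.9% of all, and the GC box in 58.8% and 69.9%.

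The alpha ring genes encode the outer rings of the core particle, which gate entry. Their 7 measured members had a median log2 ratio of 0.08, with 5 above 0 and 2 below. Psma6 was highest, with 320 control and 372 knockout counts at chr12:55398335-55399297, a ratio of 1.21 (1.04 to 1.41). Psma7 was lowest, with 348 and 281 counts at chr2:180041919-180042903, a ratio of 0.844 (0.718 to 0.990). The intervals of these 2 members exclude 1 in opposite directions. Psma5 (log2 ratio 0.20), Psma3 (0.13), Psma1 (0.08), Psma2 (0.03) and Psma4 (-0.03) lay between them, each with an interval that holds 1. Psma8, the alpha subunit gene of germ cells, had no peak within 1 kb of the gene.

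The beta ring genes encode the inner rings with the catalytic sites. Their 7 members also had a median of 0.08, with 5 above 0. Psmb2 had 273 and 318 counts at chr4:126677205-126678074, a ratio of 1.22 (1.03 to 1.44). Psmb3 had the most counts of all members, 567 and 624 at chr11:97702511-97703740, a ratio of 1.15 (1.02 to 1.29). Psmb6, a constitutive catalytic subunit, was lowest, with 247 and 198 counts at chr11:70524923-70525593, a ratio of 0.837 whose interval, 0.691 to 1.01, holds 1. The other constitutive catalytic subunits, Psmb5 (117 and 118 counts, log2 ratio 0.08) and Psmb7 (104 and 111, 0.16), were weak peaks with little difference in counts. Psmb1 (0.01) and Psmb4 (-0.03) were nearest to 0.

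The inducible catalytic subunits form the immunoproteasome, which cuts peptides for antigen presentation, and their promoters pointed in opposite directions. Psmb10 had the highest ratio and the widest peak of the list, 1640 bp at chr8:105936860-105938500, with 470 control and 600 knockout counts (ratio 1.33, 1.18 to 1.51). Psmb8, which lies in the major histocompatibility region with Psmb9, had 163 and 126 counts at chr17:34197522-34198213, a ratio of 0.808 whose interval, 0.635 to 1.03, holds 1. Psmb9 has no peak assigned to it in the table. The peak over its start, at chr17:34187053-34188271, is assigned to Tap1, a peptide transporter gene of antigen presentation that starts 223 bp away on the opposite strand. It held 425 and 299 counts, a ratio of 0.735 (0.632 to 0.854), lower than that of any member. Psmb11, the subunit of thymic cortical cells, had no peak within 1 kb of the gene.

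The activator genes encode caps that open the core particle. All 3 measured members lay above 0. Psme1, an interferon-inducible cap subunit, had 196 and 216 counts at chr14:55578191-55578742, a ratio of 1.15 (0.944 to 1.40). Psme3, the nuclear cap, had 171 and 200 counts at chr11:101315786-101316759, a ratio of 1.22 (0.991 to 1.51). Psme4 had 268 and 271 counts at chr11:30771377-30772572, a ratio of 1.06 (0.889 to 1.26). Each of these intervals holds 1, and on the RPM scale the median of the activators was 0.03. Psme2, the partner of Psme1 in its cap, was again under a neighbour's name: the peak over its start, at chr14:55590708-55592169, is assigned to Rnf31, which starts 607 bp away on the opposite strand. It held 859 and 1009 counts, a ratio of 1.23 (1.12 to 1.35).

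The ATPases of the regulatory particle unfold the substrate. Their 5 measured members had a median of 0.01, and each interval holds 1. Psmc2 was highest, with 196 and 214 counts at chr5:21784669-21785388 (ratio 1.14, 0.935 to 1.39), and Psmc4 lowest, with 328 and 279 at chr7:28049840-28050388 (0.889, 0.755 to 1.05). Psmc1 (log2 ratio 0.14), Psmc3 (0.01) and Psmc6 (-0.11) fell between. Psmc5 shares a peak with Ftsj3, which starts 106 bp away on the opposite strand and to which the table assigns it. That peak held 286 and 281 counts, a ratio of 1.03 (0.868 to 1.21).

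The non-ATPase subunits include the scaffolds Psmd1 and Psmd2, the ubiquitin receptor Psmd4 and the deubiquitinase Psmd14. Their 10 measured members had a median of -0.11, with 4 above 0 and 6 below. Psmd8 had the lowest ratio of the list, with 436 control and 320 knockout counts at chr7:29180248-29180909 (ratio 0.767, 0.662 to 0.888). Psmd4 was next among the non-ATPase subunits, with 266 and 209 counts at chr3:95042252-95042997 (0.821, 0.682 to 0.988). The intervals of both exclude 1. Psmd7 (log2 ratio -0.18), Psmd14 (-0.17), Psmd1 (-0.14) and Psmd6 (-0.07) were also below 0. Psmd2 was highest, with 188 and 203 counts at chr16:20651415-20652102 (1.13, 0.920 to 1.38), and Psmd3 (0.15), Psmd11 (0.12) and Psmd12 (0.07) were above 0. Psmd13 shares its peak with Sirt3, a mitochondrial deacetylase gene that starts 105 bp away on the opposite strand. That peak, assigned to Sirt3, held 329 and 261 counts, a ratio of 0.829 (0.702 to 0.978).

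Assembly of the complex is helped by dedicated chaperones. Among the chaperones of the regulatory particle base, Psmd5 had 391 and 298 counts at chr2:34870627-34871500, a ratio of 0.796 (0.683 to 0.928) whose interval excludes 1. Psmd10, also named gankyrin, had 188 and 153 counts (log2 ratio -0.23). Psmd9 had the fewest counts of all members, 67 and 81 at chr5:123228049-123228435, and a ratio of 1.26 with a wide interval of 0.902 to 1.77. Among the chaperones of the core particle, Psmg1 had 268 and 316 counts at chr16:95990558-95991231, a ratio of 1.23 (1.04 to 1.46). Its dimer partner Psmg2 had 238 and 219 counts (log2 ratio -0.06). Of the other pair, Psmg3 had 110 and 87 counts at chr5:139826702-139827085, a ratio of 0.826 whose interval, 0.616 to 1.10, holds 1, and Psmg4 had 321 and 277 counts (log2 ratio -0.15). The dimer partners Psmg1 and Psmg2 thus lay on opposite sides of 0, with the interval of Psmg2 holding 1.

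**Figure D4:**
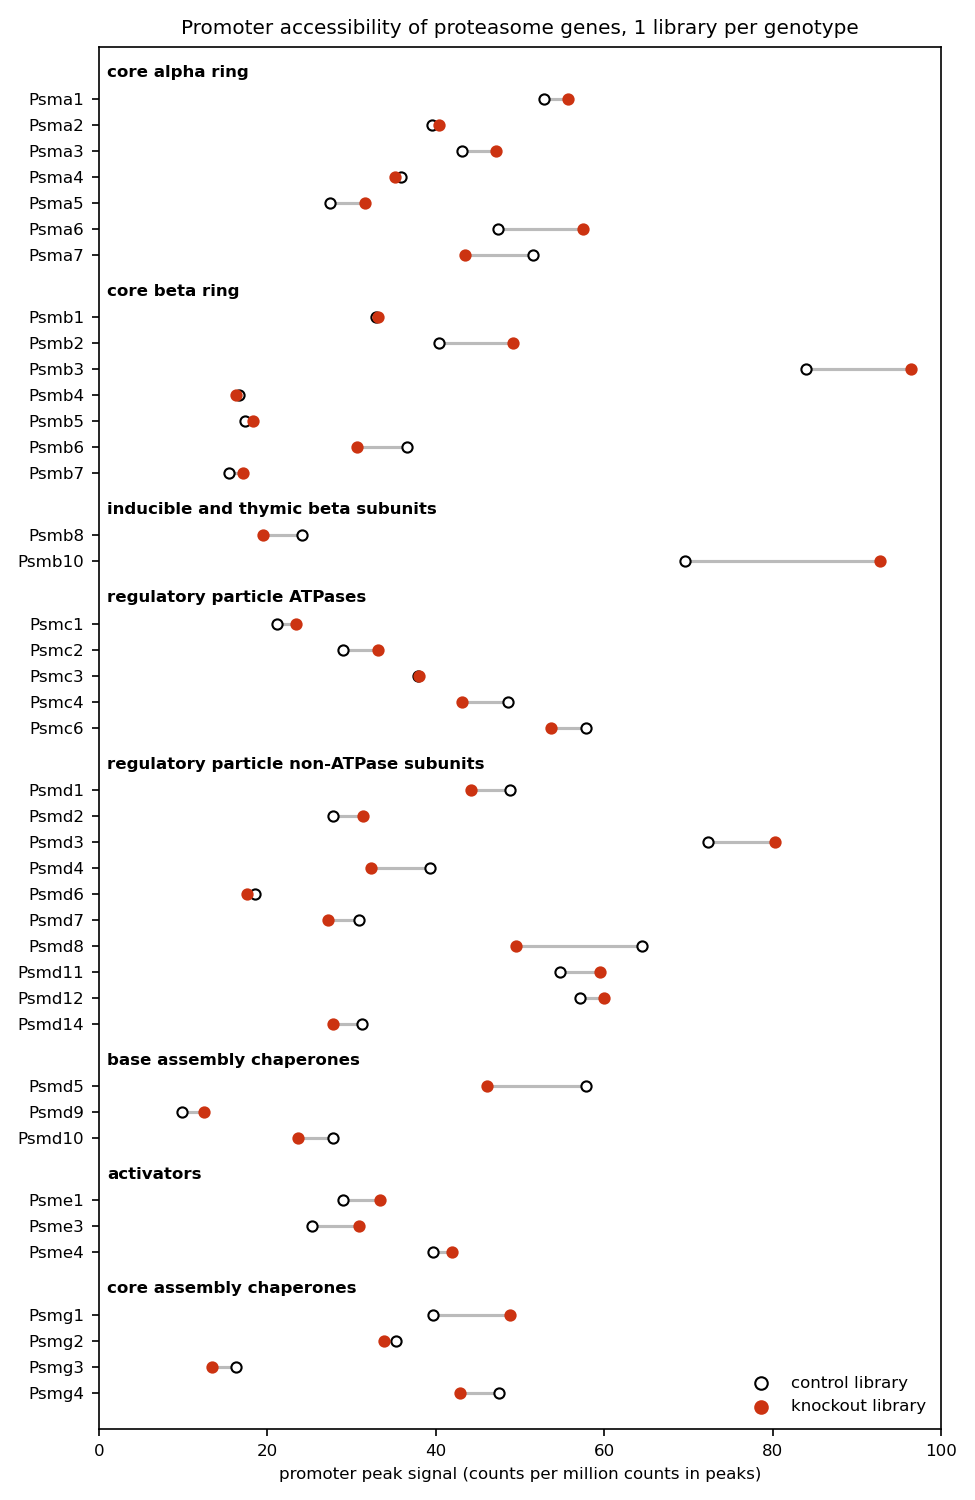
Promoter peak signal in CPM (x axis) of each proteasome gene in the control (open points) and knockout library (filled points), by role. Psmb10 ran from 69.6 CPM in the control to 92.8 in the knockout and Psmd8 from 64.5 to 49.5.

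Grouped by particle, the 14 constitutive core genes had a median log2 ratio of 0.08 (10 above 0) and a summed ratio of 1.06 (1.01 to 1.11). The 15 measured regulatory particle genes had a median of -0.07 (7 above 0) and a summed ratio of 0.971 (0.929 to 1.01). On the RPM scale the summed ratios were 0.939 (0.897 to 0.983) for the core and 0.861 (0.825 to 0.899) for the regulatory particle, so that the interval of the core turned from above to below 1. The difference of the medians was 0.14, a value that a scaling common to all peaks leaves as it is. Both particles held members on either side of 0, and with 1 library per genotype the difference has no test. By peak width, 10 of 12 members over 900 bp lay above 0 (median 0.13), 6 of 14 over 700 and up to 900 bp (median -0.04) and 7 of 15 up to 700 bp (median -0.03). Over all named promoters the shares above 0 in these classes were 47.8%, 46.4% and 44.6%, and the split of the members was not tested.

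Most proteasome genes had no other peak assigned to them. Of the 41, 26 (63.4%) had a single assigned peak, against 42.7% of all named genes with a promoter peak. Peaks assigned to a neighbour are not counted here. Psmd3 and Psme3, with 1 assigned peak each, had 2 peaks within 1 kb of the gene, the further one assigned to Csf3 and to Aoc2. The other 15 had 24 further peaks, of which 11 were called in both libraries. At least 2-fold differences were seen at 5 of these 24, and at 15.9% of such peaks over all named genes. Higher in the knockout were an intronic peak of Psmb1 (8 and 34 counts), a peak 2 to 3 kb from a Psmb3 start (23 and 53) and a distal peak of Psmd4 (14 and 56). Lower were an intronic peak of Psme4 (30 and 8) and a distal peak of Psmg1 (19 and 4). All 5 were weak and were called only in the library where they were higher. The strongest further peaks were 2 distal regions assigned to Psma6 and Psma3, at chr12:55446480-55447470 (430 and 484 counts, ratio 1.18, 1.03 to 1.34) and chr12:70968082-70969237 (291 and 361, 1.30, 1.11 to 1.52).

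Of 34 genes that work with the proteasome but carry other names, 32 had a promoter peak. Their median log2 ratio was -0.01, with 15 above 0, 17 below and 0 at least 2-fold different. The largest differences were at Trim63, the muscle ubiquitin ligase of atrophy, with 133 and 69 counts (ratio 0.542, 0.399 to 0.730), and Ngly1, a deglycosylase that activates Nfe2l1, with 420 and 283 (0.704, 0.603 to 0.820). The Trim63 peak was called in the control library alone, and it lay wholly downstream of the assigned start without covering it. Uba1, the main ubiquitin-activating enzyme, had 126 and 152 counts (1.26, 0.989 to 1.61). Fbxo32, the other ligase of muscle atrophy, had 313 and 348 (1.16, 0.994 to 1.36). Among genes named after their values were seen, Nfe2l1 itself had 586 and 563 counts (1.004, 0.892 to 1.13). Nfe2l2 had 1122 and 1210 (1.13, 1.04 to 1.22) and Ubqln4, a shuttle factor, 848 and 911 (1.12, 1.02 to 1.23). The intervals of Nfe2l2, Ubqln4, Trim63 and Ngly1 exclude 1: 2 above (6.25%) and 2 below (6.25%) of 32, lower shares than the 13.1% and 16.3% of all named promoters. That order depends on the scaling. On the RPM scale no partner lay above 1 and 13 (40.6%) lay below, against 4.64% and 37.6% of all named promoters. With TMM scaling 7 partners (21.9%) lay above and 2 (6.25%) below, against 17.6% and 12.03%. With median centring 5 (15.6%) lay above and 2 (6.25%) below, against 14.5% and 14.8%.

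Other large complexes used by every cell were set beside the proteasome. Cytosolic ribosomal protein genes had a median of 0.0027 over 70 promoters (SD 0.22) and mitochondrial ribosomal protein genes 0.05 over 63 (SD 0.28), with 0 and 1 promoters at least 2-fold different. The chaperonin genes had a median of -0.09 over 8 (SD 0.35, quartiles -0.26 and -0.05), with 1 promoter at least 2-fold lower. In these lists the peaks of Cct6a and Mrpl16 were not called in both libraries, and all others were. The standard deviation of 0.21 over proteasome genes compares with 0.37 over all named promoters and 0.29 in the same range of counts. The quartiles were -0.17 and 0.17 for the members and -0.20 and 0.14 in the same range of counts. The median absolute log2 ratio was 0.170 and 0.173. A smaller spread of the members can therefore not be read from the standard deviations alone. None of these differences between lists was tested.

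**Figure D5:**
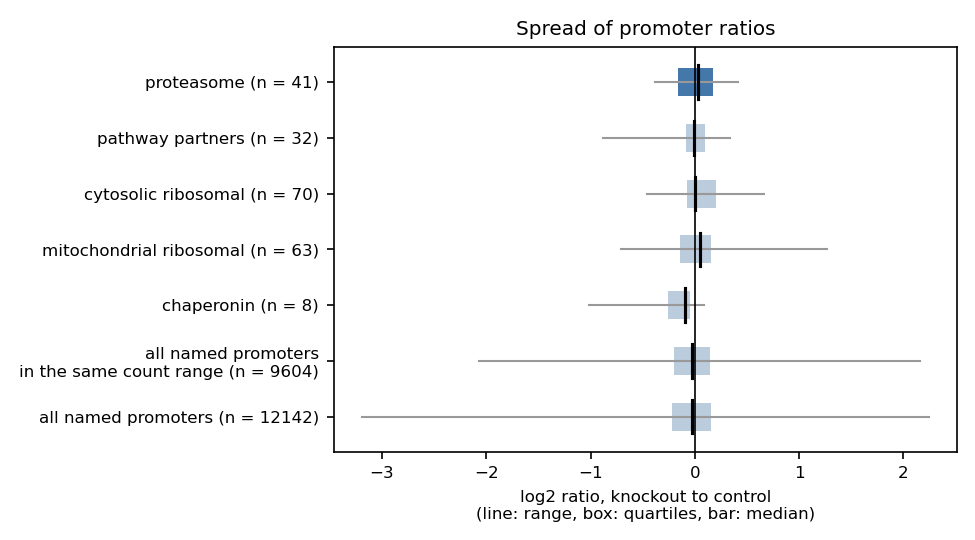
Log2 ratio, knockout to control (x axis), of promoters in each gene list: line for the range, box for the quartiles, bar for the median. The proteasome genes run from -0.38 to 0.42 with a median of 0.03.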

How the data were processed

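ATAC-seq counts of 2 mouse heart libraries, 1 control and 1 knockout, were analysed as deposited. BWA, MACS2 and the build GRCm38.p6 appear in the submitters' processing notes, with no versions; read filters and any Tn5 offset are not given there. The authors deposited, per the file headers, whole-number counts per merged peak, RPM values, fold enrichment (a ratio) and a log2 fold change that equals the log2 ratio of the RPM values. Peak starts are given as in the table.

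Identifiers took RefSeq symbols by position: span overlap over union of at least 0.5 and 2 times the next candidate, both ends within 1 kb, or 95% or more of the span within 1 protein-coding gene only. Of 24480 identifiers 18647 (76.2%) were named, and 36 of the 41 members came from span overlap and 5 from containment. Log2 ratios came from CPM (counts over all table peaks), after adding 0.5 to each count. Intervals are at 95%. The 2-fold rule and the intervals were tested on simulated counts with counting error only, and the naming by position on a small made-up annotation. The other steps were not tested in this way. The members and lists were chosen with earlier results of these data known. All members are named in their role group, with counts and intervals for the highest and lowest of each role, for those whose interval excludes 1, and for inducible subunits and activators; of the pathway partners, the 4 with the largest difference. Alternatives were TMM (edgeR 4.0.16), median centring, loess (statsmodels 0.14.6), the authors' RPM, a pseudocount of 5, summed peaks, a 3 kb promoter, signal and calling filters, a 1.5-fold rule and other naming rules. Python 3.11.15 and R 4.3.3 were used.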

Additional observations from a re-analysis of the deposited data

How the results depend on the processing

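The proteasome median log2 ratio of 0.03 was 0.082 with TMM scaling, 0.071 over all 43 prefix matches and -0.14 on the authors' RPM scale, where 11 members lay above 0. On that scale the medians were -0.097 for the alpha and for the beta ring, -0.12 for the inducible subunits, -0.17 for the ATPases, -0.28 for the non-ATPase subunits, -0.40 for the base chaperones, 0.030 for the activators and -0.27 for the core chaperones. Pathway partners had a median of 0.043 with TMM and -0.18 on the RPM scale, with 4 above 0 and 1 at least 2-fold different; the 1.5-fold rule also gave 1. No member passed the 2-fold rule under any alternative run, nor the 1.5-fold rule. Of 287 alternative values of single members, 1 left its counting interval (Psmb3, 0.03 on the RPM scale). This count is no measure of stability. Each member had 1 promoter peak within 1 kb, so summing peaks could change no value, and the 3 kb promoter gave the same values. The sign of the log2 ratio changed at 12 members on the RPM scale, at 2 with TMM and at 1 with loess. Intervals above and below 1 numbered 5 and 4, and 7 and 2 with TMM, 6 and 3 with median centring and 1 and 14 on the RPM scale, a count added after the data had been seen: Psma6, Psmb2, Psmb3 and Psmg1 then held 1. The 6 and 3 members with median centring were 14.6% and 7.32%, against 14.5% and 14.8% of all named promoters. At least 2-fold higher and lower promoters numbered 136 and 151, and 213 and 68 with loess, 88 and 247 on the RPM scale, 4 and 1 in the upper part of signal, 18 and 16 among peaks called in both libraries, and 490 and 637 by the 1.5-fold rule; a pseudocount of 5 gave 90 lower. The cause of these shifts was not tested. The difference between core and regulatory particle, also added then, cannot move under scalings by 1 constant; it was 0.138 with loess and 0.139 with a pseudocount of 5. The stricter naming rule left 30 members and naming without containment 36, with 16 and 20 above 0. No paired analysis was possible because each genotype has 1 library. Counts of 67 to 624 per peak limit single ratios to intervals of the widths given, and say nothing about differences between animals.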

Other observations

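The symbol prefix also finds 2 genes that are no proteasome genes but are named after a proteasome partner, and both had a promoter peak called in both libraries. Psme3ip1, a nuclear protein that binds Psme3, had 389 and 448 counts (ratio 1.20, 1.05 to 1.38). Psmc3ip, a factor of meiotic recombination, had 225 and 253 counts (1.17, 0.978 to 1.41). Psme2b, a further match by name, had no peak within 1 kb of the gene.

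Of the splits by the 7 motifs searched, 2 are given here, chosen after their values were seen. The 20 members with a GC box in the promoter window had a median log2 ratio of -0.09 (8 above 0), and the 14 without it 0.17 (10 above 0). Over all 8134 named windows the medians were -0.03 with and -0.02 without the box. The 13 members with the ETS motif had a median of 0.12 (9 above 0) and the 21 without it -0.03 (9 above 0), and over all windows the medians were -0.02 and -0.03. Neither split was tested.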
